A study of Homo sapiens with 21 samples.

Results

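The first day of TGFβ treatment of HMLE cells was compared with the untreated cells, using the 3 libraries headed d1 and the 3 headed d0. The members of the comparison were all genes with a mean normalised read count of at least 10 over these 6 libraries, 13248 of the 23201 gene symbols listed. HMLE cells are human mammary epithelial cells that were immortalized and are kept as an established line, and every group of the study carries the same immortalizing changes, telomerase and a viral oncogene region. RNA of the line was sequenced untreated (d0) and at days 1, 4, 7, 10, 15 and 20 of TGFβ, with 3 libraries at each of the 7 timepoints and 21 in all. The study describes them as biological triplicates, the dose of TGFβ is not given in the sources used here, and 1 line was used throughout. Untreated cells were taken only at day 0. The effect of TGFβ therefore cannot be told apart from that of 1 more day in culture.

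TGFβ is a secreted cytokine that binds a pair of receptor kinases at the cell surface. The receptors phosphorylate SMAD2 and SMAD3, which enter the nucleus with SMAD4 and act there with other factors such as AP-1. In epithelial cells the pathway starts the epithelial-mesenchymal transition (EMT), in which cells lose junctions and apical polarity, rearrange actin and make extracellular matrix, and it slows division of normal epithelium. Among its earliest transcripts are inhibitors that feed back on the pathway, such as SMAD7, SKIL and PMEPA1.

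Values are normalised read counts, the reads of a gene divided by 1 size factor per library. They are not scaled to gene length, so levels were compared between libraries and not between genes. The 6 libraries held 18847917 to 21700232 reads, and the sum of the normalised values was 18266631 to 18648067 in untreated cells and 20925779 to 21247234 at day 1. Of the 9953 genes under the minimum, 4786 were at 0 in all 6 libraries. A tested gene with a mean under 10 in 1 group passed only through the other, which fixed its direction in the counts. GREM1, NOG, WNT5B, CDH11, MFAP2 and ZEB1 are among such genes. The root mean square log2 difference between 2 libraries was 0.207 to 0.229 within a group and 0.760 to 0.772 across the groups. Means are given ± SD of 3 libraries, and log2 fold changes of day 1 over untreated cells ± SE from limma on log2(value + 1), a scale that understates the change of genes with low values.

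After a single day of TGFβ most measured genes differed from untreated cells, though mostly by small amounts. At a Benjamini-Hochberg adjusted p under 0.05 by limma, 4446 genes (33.6%) were higher and 4275 (32.3%) lower at day 1, and 62.2% of these 8721 changes were smaller than 0.5 on the log2 scale. With a change of at least 2-fold as well, 804 genes (6.07%) were higher and 567 (4.28%) lower. Increases reached further than decreases, with 254 genes at least 4-fold higher and 127 at least 4-fold lower, and 110 against 41 at 8-fold. The genes at least 2-fold higher held 3.83% of the normalised total of untreated cells and 13.5% of that at day 1, and the genes at least 2-fold lower went from 1.36% to 0.407%. The median log2 fold change over all genes was -0.0037. When each library was instead rescaled to the same total, the median moved to -0.196 and the balance of calls turned, with 2608 genes higher and 7192 lower, and with 614 higher and 776 lower at 2-fold. Small changes below are therefore relative to the size factors, and list medians are given under both scalings where their sign differs.

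**Figure D1:**
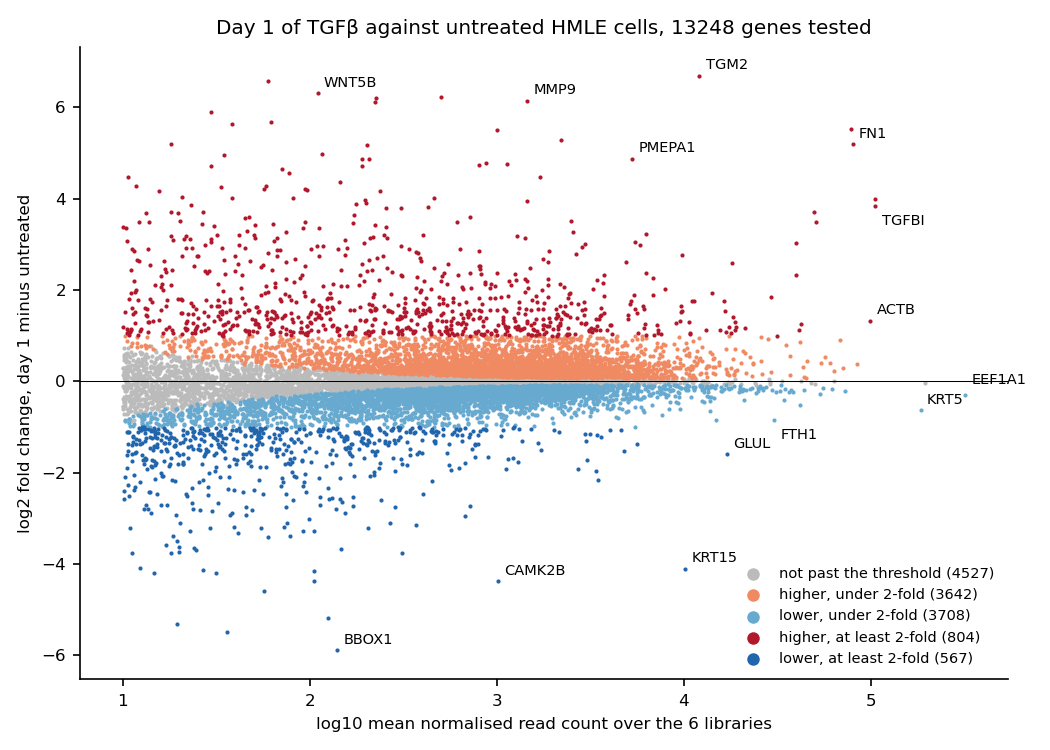
Log2 fold change of day 1 over untreated cells (vertical axis) against the log10 mean normalised read count over the 6 libraries (horizontal axis) for the 13248 genes tested, 1 point per gene, coloured by the call. TGM2 and FN1 stand high among genes with many reads, KRT15 and CAMK2B lie among the deepest decreases, and 804 increases of at least 2-fold face 567 decreases.

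The largest increases included genes of matrix, matrix proteolysis and pathway feedback. TGM2 encodes transglutaminase 2, an enzyme that crosslinks matrix proteins. Its untreated libraries read 247, 218 and 229, and those at day 1 24283, 23951 and 23772. The groups were far apart, and the increase of 6.69 ± 0.040 was the largest of the comparison among genes with a mean of at least 200 in a group (adjusted p = 9.73e-32, limma). FN1, which encodes fibronectin, went from 4451, 4110.3 and 4168 to 158588, 158897 and 150244 and increased by 5.20 ± 0.032. In both genes the lowest library at day 1 lay above the highest untreated one by more than an order of magnitude.

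The other genes named among the 15 with the largest increases ranged from 6.32 for WNT5B, a WNT ligand that signals without β-catenin, to 4.86 for NLRP3, the sensor of an inflammasome. MMP9, a secreted gelatinase, rose from 39.8 ± 6.53 to 2874 ± 100.1. IGFBP3, a binding protein of insulin-like growth factors, rose from 42.6 ± 4.51 to 1976 ± 54.3, and the metalloproteinase ADAM19 from 109.5 ± 3.47 to 4328 ± 79.1. PMEPA1, an inhibitor of receptor-activated SMADs, rose from 348 ± 24.5 to 10273 ± 348. The collagen COL22A1 (6.20), the secretory chaperone SCG5 (6.23), the adaptor SH2D2A (6.11), the adhesion molecule NTM (4.97) and the myosin heavy chain loci MYH16 (5.17) and MYH15 (4.87) were also in the set. None of the 15 had overlapping groups, a condition of the naming rule.

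The deepest decreases included genes of metabolism, stratified epithelium and signalling. BBOX1, the last enzyme of carnitine synthesis, fell from 303, 277 and 249 to 7.32, 2.05 and 2.98, a log2 change of -5.89 ± 0.26 (adjusted p = 3.52e-15, limma). KRT15, a keratin of basal cells, read 19251, 18940.1 and 19362 in untreated cells and 1126, 1128 and 1102 at day 1, a change of -4.10 ± 0.030. The libraries within each group lay close together for KRT15, which had 19570 to 22330 reads in the untreated libraries. CAMK2B, a calcium/calmodulin-dependent kinase, fell from 1942 ± 40.7 to 93.1 ± 5.28. Enzymes in the set were ALDH3B2 (-4.37), PRODH, which oxidizes proline (-4.16), SULT1E1, which sulfates estrogen (-3.15), and GLS2, a glutaminase (-2.75). Epithelial genes were KRT13 (-3.76) and the cornified envelope precursor SPRR1A (-2.80). EPHB6, an Eph receptor without kinase activity (-5.18), the chemokine CXCL14 (-3.67), WNT4 (-2.89) and the caveola protein SDPR (-3.11) fell too, as did ANKRD22 (-3.21) and METTL7A (-2.95).

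**Figure D2:**
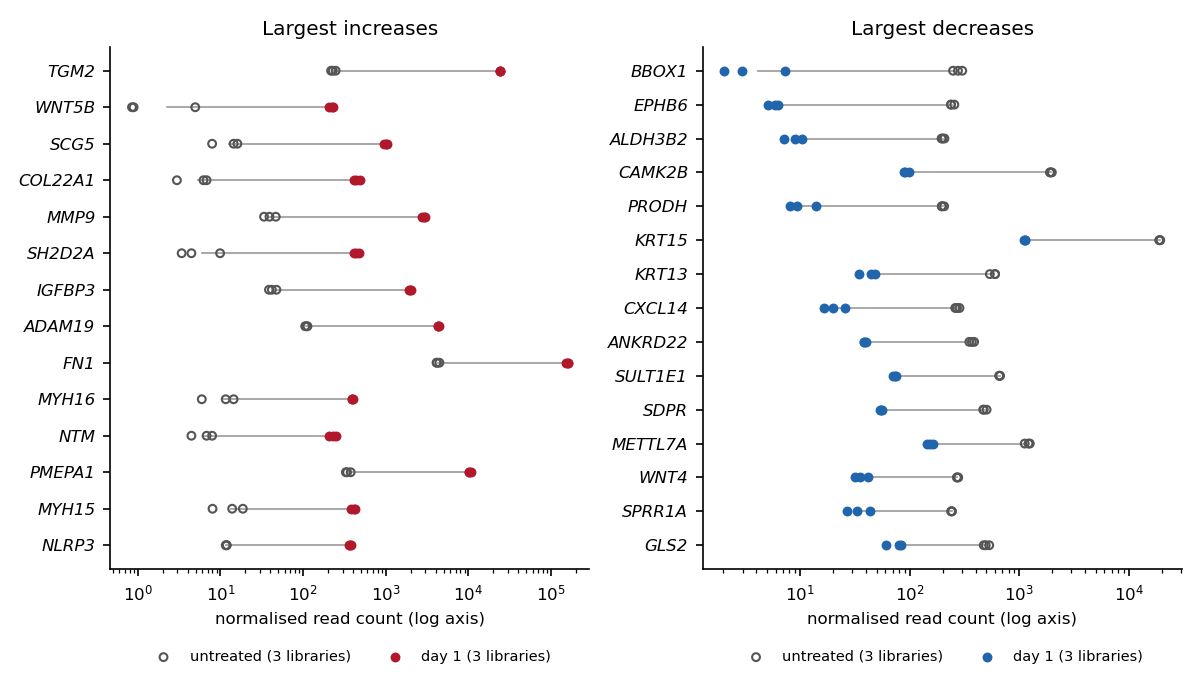
Normalised read counts on a log axis of 14 of the 15 genes with the largest increase (left) and the 15 with the largest decrease (right), with open points for the 3 untreated libraries, filled points for the 3 day 1 libraries and a line between the group means. In every gene the groups are separate, and the spread within a group is widest where values are under 10, as in WNT5B and BBOX1.

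Counted in reads rather than in fold, the largest gains included those of TGFBI (from 13844 to 197808), FN1 and ACTB (from 56721 to 142272), which encode a TGFβ-induced matrix protein, fibronectin and cytoplasmic actin. The largest losses were in KRT5 (from 224349 to 145714), EEF1A1, a translation elongation factor (from 353639 to 288536), KRT15, the ferritin heavy chain FTH1 (from 39096 to 21688) and GLUL, glutamine synthetase (from 25461 to 8448). EEF1A1 had the smallest change among them, -0.29, which was 0 after quantile normalization and -0.49 with equal totals. Reads of ACTB, EEF1A1 and FTH1 can be shared with near-identical genes or processed pseudogenes, so their values are less certain.

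Some genes crossed the limit of detection, set at 3 reads in a library. In 85 genes all untreated libraries were at or under 3 reads and all day 1 libraries above, and 125 genes went the other way. CDH11, a mesenchymal cadherin, read 0, 0.85 and 0.99 in untreated cells and 84.7, 67.7 and 76.4 at day 1, at least 28.0-fold higher than 3 reads per library. MYO7B, an unconventional myosin, was at least 43.8-fold higher, the leukocyte Rac activator DOCK2 at least 23.7-fold and KIAA1644 at least 25.02-fold. CGB8, a chorionic gonadotropin β gene, was at least 44.8-fold higher, but its reads can be shared with near-identical copies. In the other direction IGFBP5, a binding protein of insulin-like growth factors, fell from 33.8, 45.0 and 38.6 to 0 in all 3 libraries, at least 12.8-fold lower. The desmosomal cadherin DSG1 was at least 16.8-fold lower, the retinol dehydrogenase DHRS9 at least 15.2-fold, PSAPL1 at least 23.3-fold and METTL7B at least 12.4-fold. These bounds cover counting error only.

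The TGFβ pathway itself changed most at its inhibitors and targets. Of the feedback inhibitors and direct SMAD targets, 17 of 19 members tested rose and 1 fell, 12 of the increases by at least 2-fold, with a median of 1.24 against -0.0037 over all genes. Like the other lists, this one was chosen with earlier results of these data known, so list medians and their order are descriptions. SMAD7, the inhibitory SMAD that targets the receptors for degradation, read 117, 99.2 and 106 in untreated cells and 712, 680.0 and 640.1 at day 1 (2.65). SKIL, a corepressor of SMADs, rose by 1.82, the ubiquitin ligases SMURF2 and SMURF1 by 1.33 and 1.04, LTBP2 by 2.94, CTGF by 2.10 and the transcription factors BHLHE40 and KLF10 by 2.12 and 1.24. TGIF2, a corepressor, was the member that fell (-0.38), and KLF11 did not pass the test (0.018, adjusted p = 0.855). SMAD6 and C18orf1, a membrane inhibitor of the pathway, were under the minimum and not tested.

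Ligands, receptors and SMADs moved less. Of 23 members tested 13 rose and 5 fell, and the median of 0.18 turned to -0.018 with equal totals. Among the ligands TGFB1 rose from 1299 ± 39.5 to 3061 ± 86.1 (1.24) and TGFB2 from 29.2 ± 8.56 to 61.8 ± 5.51, while TGFB3 fell from 31.6 ± 2.69 to 10.6 ± 4.99 (-1.60). FURIN, which cleaves the TGFβ precursor, rose by 1.03, and THBS1, thrombospondin, which releases the latent ligand, by 3.72. The receptors differed among themselves. TGFBR2 and TGFBR1 rose by 0.50 and 0.24, a call that TGFBR1 lost with equal totals (adjusted p = 0.463, limma), and the coreceptor ENG by 0.92, whereas the coreceptor TGFBR3 (betaglycan) fell from 73.0, 73.8 and 56.4 to 17.8, 24.6 and 18.9 (-1.69). SMAD3 rose by 0.31 and SMAD1 fell by 0.17. SMAD2 did not pass the test (-0.081, adjusted p = 0.0612, limma) but was called lower under 5 alternatives, at -0.27 (adjusted p = 1.93e-06) with equal totals, at -0.20 after quantile normalization, and with an adjusted p of 0.041 with TMM factors, 0.0336 by edgeR and 0.0348 without the second untreated library.

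The BMP and activin branches, which signal through related receptors, showed increases of both ligands and antagonists. Of 18 members tested 13 rose and 3 fell, 9 and 1 of them by at least 2-fold, with a median of 0.93, and 8 more were under the minimum. NOG and GREM1, counted among the increases, passed the minimum only through day 1. The BMP antagonist NOG rose from 3.83 ± 1.99 to 72.9 ± 2.96 (4.02), and GREM1, another antagonist, was at 0 in all untreated libraries and at 34.5, 41.02 and 32.8 at day 1, at least 13.2-fold higher than 3 reads per library. INHBA, the chain of activin A, rose from 286 ± 30.1 to 2534 ± 77.9 (3.15) together with the activin antagonists FST (1.90) and FSTL3 (2.14). BMP6 rose by 2.41, GDF15 fell by 1.03, and BMP7 did not pass the test (-0.22, adjusted p = 0.562). ID1, an inhibitor of helix-loop-helix factors, rose by 1.05. ID3 was called higher at 0.18, a sign that turned when libraries were set to equal totals.

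Transcription factors of EMT mostly rose, while those of epithelial identity fell more often than they rose. Of 17 EMT factors tested 12 rose, 8 of them at least 2-fold, and 1 fell, with a median of 0.89. SNAI2, a repressor of epithelial genes, read 1336, 1239 and 1168 in untreated cells and 6260.0, 6309 and 6268 at day 1 (2.33 ± 0.040). HMGA2, a chromatin protein downstream of SMADs, rose from 653 ± 12.99 to 5253 ± 126 (3.01). ZEB1, which represses CDH1, rose from 6.23, 5.94 and 4.95 to 37.6, 41.02 and 55.6 (2.76), and ZEB2 by 0.89. SOX4, SOX9, ETS1 and TWIST2 rose by 1.83, 1.47, 1.90 and 1.63. SNAI1, which encodes Snail, had a mean of 0.613 in untreated cells and 1.32 at day 1 and was not tested.

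Of 24 epithelial transcription factors and splicing regulators tested, 12 fell and 6 rose, and the 6 changes of at least 2-fold were all decreases. With equal totals 19 fell and 3 rose, and after quantile normalization 16 fell and 3 rose. The grainyhead factors fell unevenly, GRHL1 from 151 ± 14.8 to 37.5 ± 12.3 (-2.03), GRHL3 (-1.99) and GRHL2 (-0.69). ELF3, an epithelial ETS factor, fell from 248, 215 and 218 to 36.6, 41.02 and 35.7 (-2.55), and TFAP2C and the RNA-binding protein RBM47 fell, with changes of -1.53 and -1.25. The epithelial splicing regulators ESRP1 and ESRP2 fell, with changes of -0.25 and -0.71. TP63, a master factor of basal cells, was called higher at 0.15, which turned under equal totals, and GATA3 and OVOL2 did not pass the test (-0.083 and -0.13, adjusted p = 0.458 and 0.341), though both were called lower with equal totals, GATA3 at -0.28 (adjusted p = 0.0196) and OVOL2 at -0.32 (adjusted p = 0.0206).

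E-cadherin was lower at day 1, by an amount that depended on the scaling. CDH1 read 7314, 6946 and 7324 in untreated cells and 6781, 6904 and 6463 at day 1, and its change of -0.10 ± 0.032 had an adjusted p of 0.00911 by limma, which became 0.0777 without the third day 1 library and 0.147 with all 21 libraries in the fit. CDH1 was at -0.29 (adjusted p = 2.31e-08) with equal totals and at -0.30 after quantile normalization. Of 25 adherens and tight junction genes tested 11 rose and 10 fell, beside 33.6% and 32.3% of all genes. Their median of 0.10 turned to -0.094 with equal totals and to -0.011 after quantile normalization. The increases of at least 2-fold were the cadherins CDH11, CDH4 (2.76) and N-cadherin CDH2, which rose from 10.99 ± 2.49 to 59.2 ± 1.25 (2.35). The deep decreases were in tight junction and nectin genes. CLDN1, the claudin of squamous epithelia, fell from 1321, 1195 and 1244 to 208, 183 and 178 (-2.72), the scaffold TJP3 from 42.3 ± 1.07 to 3.74 ± 2.13, and PVRL4, which encodes nectin-4, was at -1.46. Cingulin (CGN), EPCAM and the polarity protein CRB3 fell, with changes of -0.96, -0.98 and -0.95. OCLN (occludin) fell by 0.65, and the α-catenin and β-catenin genes CTNNA1 and CTNNB1 rose by 0.36 and 0.34.

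Desmosome and hemidesmosome genes changed in both directions. Of 22 tested 10 rose and 11 fell, beside 33.6% and 32.3% of all genes. Laminin chain genes of the epithelial basement membrane rose. LAMA3 read 8804, 8245 and 8058 in untreated cells and 95319, 95146 and 90084 at day 1 (3.48 ± 0.033), and LAMB3 rose from 8723 ± 179 to 71236 ± 264 (3.03). The receptor integrins ITGA6 and ITGB4 rose by 1.53 and 1.86 and the hemidesmosomal collagen COL17A1 by 0.93. In the desmosome, periplakin (PPL) fell from 5709 ± 144 to 1279 ± 18.7 (-2.16), as did its relative EVPL (-1.36) and the cadherins DSC1 (-1.81), DSG3 (-0.995) and DSC3 (-0.63).

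Keratins and cornified envelope genes had the lowest median of the 33 gene lists, -0.85, with 19 of 29 members lower and 7 higher. Besides KRT15 and KRT13, the calgranulins S100A8 and S100A9 fell, with changes of -1.82 and -1.34, as did transglutaminase TGM1 (-1.47) and SBSN (-2.47). KRT5, the main basal keratin, fell by 0.62 on far more reads. Against this, IVL (involucrin), a cornified envelope precursor, rose from 89.9, 113 and 125 to 1275, 1361 and 1359 (3.61 ± 0.087), and KRT7, a keratin of simple epithelia, from 13120.1 ± 387 to 66420.3 ± 1092 (2.34). KRT6A rose by 1.12 while KRT16 fell by 1.15. Reads of KRT6A with KRT6B and KRT6C, of KRT14 with KRT16 and KRT17, and of the SPRR genes can be shared between near-identical copies.

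**Figure D3:**
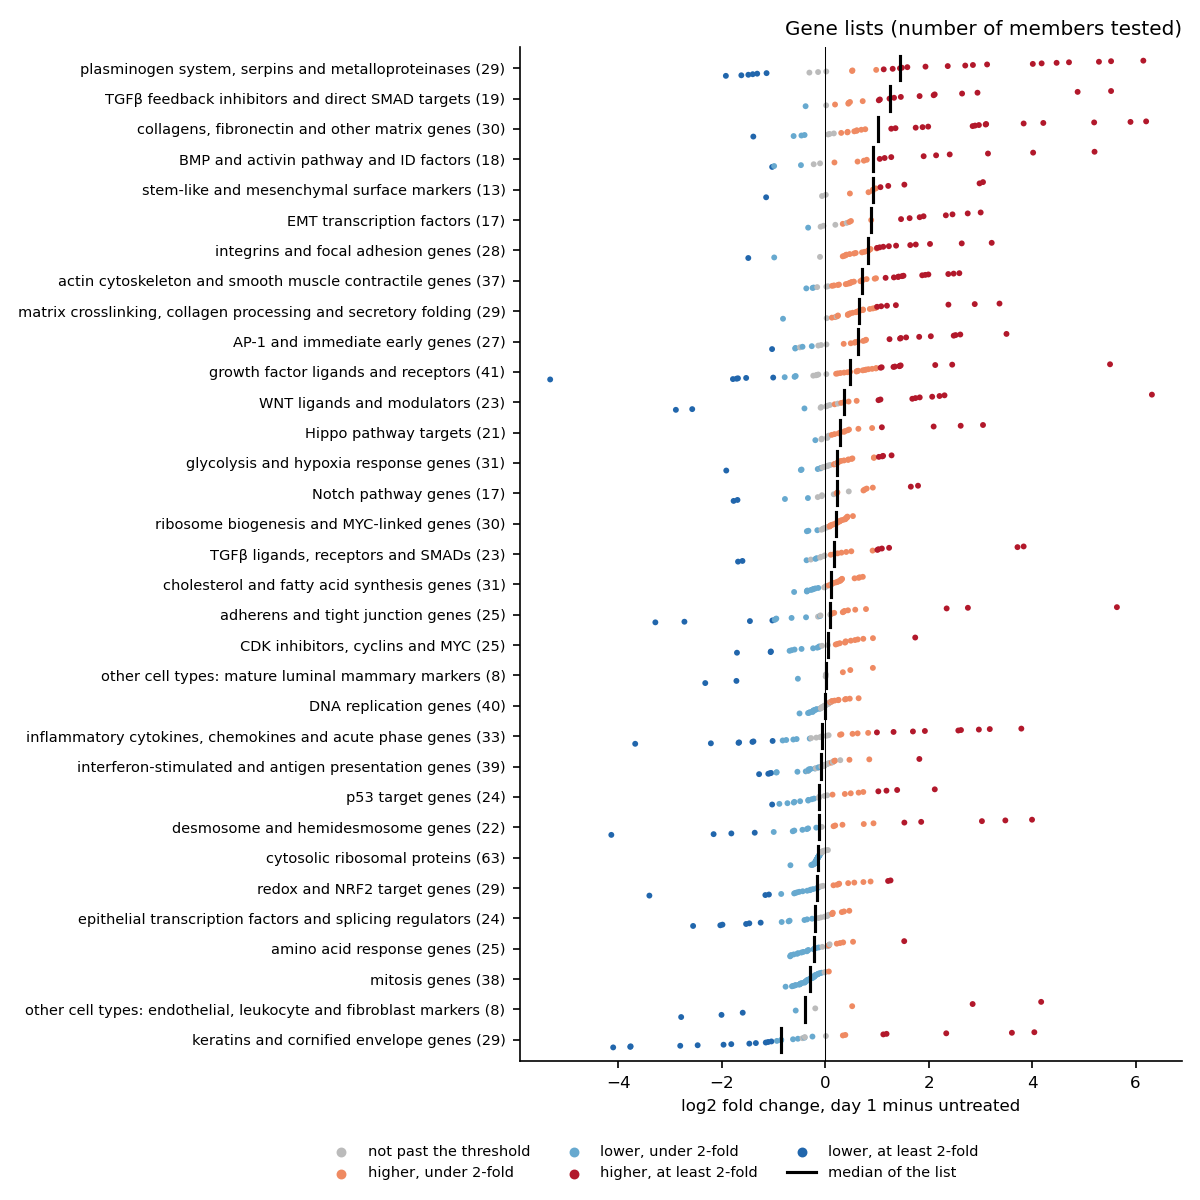
Log2 fold change of day 1 over untreated cells (horizontal axis) for each tested member of the 33 gene lists, 1 point per gene coloured by its call, with a black bar at the median of the list. Lists are ordered by median, from 1.45 for the plasminogen and metalloproteinase list to -0.85 for keratins and cornified envelope genes, and mitosis and ribosomal protein genes form narrow clouds just under 0.

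Matrix genes were among those that rose most widely. Of 30 collagens and other matrix genes tested 23 rose, 15 of them at least 2-fold, and 4 fell, with a median of 1.03. COL1A1, a chain of the main fibrillar collagen, read 449, 457 and 479 in untreated cells and 3477, 3255 and 3271 at day 1 (2.85). The basement membrane chains COL4A1 and COL4A2 rose by 1.88 and 1.75, tenascin-C (TNC) by 1.99 and the proteoglycan SPOCK1 by 2.90. MFAP2, a microfibril protein, was at 0 in untreated cells and at 59.3 ± 9.75 at day 1, at least 21.8-fold higher than 3 reads per library. BGN (biglycan) fell by 1.39, and COL5A2 and COL18A1 did not pass the test. The 12 members under the minimum included DCN and POSTN, decorin and periostin, with day 1 means of 0 and 14.7.

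Enzymes that process matrix and fold secreted proteins rose with it, 26 of 29 tested against 1 lower, with a median of 0.66. The lysyl oxidase LOX rose from 322 ± 16.7 to 1681 ± 31.2 (2.38), the collagen prolyl hydroxylase P4HA3 by 3.37 and the coat protein SEC24D by 1.37. HSPA5 (BiP), the main chaperone of the endoplasmic reticulum, rose from 10590.1 ± 313 to 24220.2 ± 171 (1.19), while DDIT3 (CHOP), a stress-induced transcription factor, was the member that fell (-0.82).

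Pericellular proteolysis had the highest median of all lists, 1.45, and its decreases were mostly kallikreins. Of 29 members tested 20 rose and 6 fell, 17 and 6 by at least 2-fold. Urokinase (PLAU) rose from 2029 ± 119 to 10475 ± 152 (2.37) and its receptor PLAUR by 1.59, and the protease inhibitor SERPINE2 by 4.47. Tissue plasminogen activator (PLAT) fell by 1.401. The metalloproteinases MMP2, MMP14 and MMP10 rose by 2.71, 1.94 and 2.86, ADAM12 by 4.18 and ADAMTS15 by 4.71. The other 5 decreases were the kallikreins KLK5, KLK7, KLK8, KLK10 and KLK11, from -1.13 to -1.92, proteases of desquamating epithelium, and KLK6 did not pass the test (-0.31, adjusted p = 0.333).

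Genes of matrix adhesion and actin rose with few exceptions. Of 28 integrin and focal adhesion genes tested 25 rose and 2 fell, with a median of 0.83. ITGB6, whose integrin binds latent TGFβ, read 1222, 1199 and 1232 in untreated cells and 11595, 11399.5 and 11044 at day 1 (3.22 ± 0.032). ITGA2, ITGA5 and ITGB5 rose by 2.03, 1.64 and 1.37. The exceptions were ITGB8, which fell by 0.99, and ITGA7, which fell by 1.49. Of 37 actin cytoskeleton and contractile genes 31 rose and 3 fell, with a median of 0.70. VIM (vimentin) rose from 5181 ± 72.9 to 31268 ± 396 (2.59), transgelin (TAGLN) from 168 ± 16.8 to 877 ± 12.9 (2.38) and tropomyosin TPM1 by 1.88. ACTA2, the smooth muscle actin used as a marker of myofibroblasts, did not pass the test (0.056, adjusted p = 0.466), and CNN1 and ACTG2 were not tested at means under 1 in both groups.

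Cell-cycle genes shifted by small amounts. Of 38 mitosis genes 35 fell and 1 rose, none by 2-fold, with a median of -0.29, and with equal totals 38 fell and the median was -0.49. TOP2A (topoisomerase IIα) fell from 16845, 17228 and 16706 to 10890.3, 11029 and 10602 (-0.64), and HMMR (-0.77), the mitotic cyclins CCNB1 (-0.33) and CCNB2 (-0.49) and MKI67 (-0.15) fell too. Of 40 DNA replication genes 10 were higher and 13 lower, beside 33.6% and 32.3% of all genes, and 4 and 29 with equal totals, beside 2608 and 7192 of 13248. None changed by 2-fold. Among regulators, cyclin D1 (CCND1) rose from 1346 ± 91.5 to 4495 ± 115 (1.74) and MYC by 0.49. The CDK inhibitors went different ways. CDKN1A (p21) rose by 0.74, while CDKN1C, which encodes p57 (-1.71), CDKN2C, p18 (-1.05), and CDKN1B, p27 (-0.59), fell. With all 21 libraries in the fit the adjusted p was 0.0725 for MYC, 0.0555 for CDKN1A and 0.29 for MKI67 (limma). CDKN2B (p15), the classical TGFβ-induced inhibitor of epithelial cells, went from 1103, 1025 and 918 to 940.3, 881 and 913, overlapping groups with a change of -0.15 ± 0.055 (adjusted p = 0.0187, limma). The adjusted p of CDKN2B was 0.158 without the first untreated library, 0.0554 without the second and 0.0734 without the second day 1 library, so its call rested on single libraries. Fitted with all 21 libraries, CDKN2B had an adjusted p of 0.46 (limma).

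AP-1 and immediate early genes rose in 18 of 27 members tested and fell in 5, with a median of 0.63. JUN rose from 563, 537 and 485 to 3199.5, 3202 and 3283 (2.61 ± 0.047), JUNB by 1.46 and FOSL1 by 1.82, whereas FOSL2 and JUND fell, with changes of -0.57 and -0.26. The list also held SPHK1, the sphingosine kinase, which read 370.2, 426 and 411 in untreated cells and 4619, 4404 and 4682 at day 1 (3.504 ± 0.047), and the MAP kinase phosphatases DUSP4 and DUSP6 (2.52 and 2.48). EGR1 and EGR3 fell, with changes of -0.58 and -1.03.

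The promoters were read for the letters that these factors bind, in windows of 250 bases before to 50 after each RefSeq start (GRCh38.p14). Of the 13248 genes 9182 had a window, 534 of the 804 genes at least 2-fold higher and 364 of the 567 lower. Each motif was searched on both strands, and a match is a description of the letters only. The AP-1 element TGAGTCA, or TGACTCA on the other strand, was in 6.99% of windows of the genes at least 2-fold higher, 6.44% of the lower ones, 3.68% of all genes tested and 4.95% of all RefSeq windows. The CAGA box AGCCAGAC, or GTCTGGCT on the other strand, which binds SMAD3 and SMAD4, was in 1.81%, 1.79%, 1.32% and 1.29% of the same sets. The palindromic SMAD element GTCTAGAC was in 0.12%, 0%, 0.133% and 0.202%. The E-box CACCTG, or CAGGTG on the other strand, which SNAI and ZEB repressors bind, was in 21.9%, 29.0%, 18.7% and 20.6%. These shares were not tested against each other.

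The windows below belong to members described here that hold a motif, printed 5′ to 3′ on the strand of the gene. They are in lower case, with the motif first named for each gene in capitals. WNT5B (chr12:1628981-1629280, plus strand) and SPHK1 (chr17:76384359-76384658, plus strand) rose and hold a CAGA box, as does TGFB3 (chr14:75982962-75983261, minus strand), which fell. LAMA3 (chr18:23872770-23873069, plus strand) and IVL (chr1:152908296-152908595, plus strand) rose and hold AP-1 elements, as does CXCL14 (chr5:135578942-135579241, minus strand), which fell. ELF3 (chr1:202010337-202010636, plus strand), which fell, holds an E-box. LAMA3 holds an E-box too, CACCTG, whose last letters overlap the AP-1 element 69 bases before the start. Only the AP-1 letters are marked there.
WNT5B: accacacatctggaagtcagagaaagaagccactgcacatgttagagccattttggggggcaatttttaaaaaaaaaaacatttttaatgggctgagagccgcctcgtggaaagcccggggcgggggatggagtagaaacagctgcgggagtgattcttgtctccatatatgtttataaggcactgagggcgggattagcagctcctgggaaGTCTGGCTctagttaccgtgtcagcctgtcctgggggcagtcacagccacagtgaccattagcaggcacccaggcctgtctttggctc
SPHK1: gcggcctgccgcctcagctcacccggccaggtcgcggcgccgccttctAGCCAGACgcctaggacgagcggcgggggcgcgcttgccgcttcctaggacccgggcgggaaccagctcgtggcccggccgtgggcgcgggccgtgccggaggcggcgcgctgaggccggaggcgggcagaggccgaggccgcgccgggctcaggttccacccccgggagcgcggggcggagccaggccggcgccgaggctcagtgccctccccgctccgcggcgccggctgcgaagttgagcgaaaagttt
TGFB3: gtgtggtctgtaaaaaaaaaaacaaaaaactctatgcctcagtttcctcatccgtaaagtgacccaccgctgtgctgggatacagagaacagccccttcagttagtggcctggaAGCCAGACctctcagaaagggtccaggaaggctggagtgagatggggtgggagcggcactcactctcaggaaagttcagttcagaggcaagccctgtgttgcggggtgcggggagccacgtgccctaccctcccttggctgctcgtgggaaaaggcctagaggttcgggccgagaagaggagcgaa
LAMA3: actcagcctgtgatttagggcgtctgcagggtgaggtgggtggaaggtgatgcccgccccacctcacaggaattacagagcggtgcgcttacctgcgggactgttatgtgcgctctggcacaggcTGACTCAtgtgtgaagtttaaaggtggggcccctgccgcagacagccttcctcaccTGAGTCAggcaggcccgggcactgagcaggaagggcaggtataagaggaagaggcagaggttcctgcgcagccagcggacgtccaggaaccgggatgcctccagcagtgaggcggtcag
IVL: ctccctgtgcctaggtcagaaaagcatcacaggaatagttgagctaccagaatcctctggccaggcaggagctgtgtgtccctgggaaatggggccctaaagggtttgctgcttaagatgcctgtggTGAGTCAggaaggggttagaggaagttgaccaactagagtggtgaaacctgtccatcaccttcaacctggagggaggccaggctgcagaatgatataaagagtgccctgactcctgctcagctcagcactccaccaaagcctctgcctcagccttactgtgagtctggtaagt
CXCL14: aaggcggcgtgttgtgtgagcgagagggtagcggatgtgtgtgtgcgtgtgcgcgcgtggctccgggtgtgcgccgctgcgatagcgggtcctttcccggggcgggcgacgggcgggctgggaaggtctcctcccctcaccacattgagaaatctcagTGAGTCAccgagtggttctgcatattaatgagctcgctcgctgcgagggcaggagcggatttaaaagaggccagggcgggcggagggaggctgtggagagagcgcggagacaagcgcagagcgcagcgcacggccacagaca
ELF3: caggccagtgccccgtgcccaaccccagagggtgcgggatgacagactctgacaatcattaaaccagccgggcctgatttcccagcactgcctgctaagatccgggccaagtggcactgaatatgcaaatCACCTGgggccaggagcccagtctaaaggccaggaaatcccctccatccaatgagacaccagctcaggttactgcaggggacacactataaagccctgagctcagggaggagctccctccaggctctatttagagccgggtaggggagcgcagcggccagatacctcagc

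The CAGA box began 38 bases before the start in WNT5B, 202 in SPHK1 and 136 in TGFB3. The AP-1 elements of LAMA3 began 125 and 69 bases before the start, that of IVL 123 and that of CXCL14 92. SPHK1 also held AP-1 elements in further windows of other RefSeq starts, beginning 6 and 71 bases before those starts. The same letters thus lay before genes that rose, such as LAMA3 at 3.48 and IVL at 3.61, and before CXCL14, which fell by 3.67.

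Of 33 inflammatory and acute phase genes tested 14 rose and 12 fell, shares not far from the 33.6% and 32.3% of all genes, 9 and 7 of them by at least 2-fold, with a median of -0.061. The colony-stimulating factor CSF3 rose from 33.8 ± 0.933 to 481 ± 19.3 (3.79), IL11, a TGFβ-responsive cytokine, from 24.9, 25.4 and 21.8 to 185, 193 and 207 (2.97), CXCL1 by 2.62 and PTGS2, cyclooxygenase 2, by 1.93. IL1A rose by 1.70 and its antagonist IL1RN fell by 1.68. The complement genes C1R, C1S and CFB fell, with changes of -1.66, -1.39 and -2.21. IL6, at means of 0.297 and 1.01, was not tested. Interferon-stimulated and antigen presentation genes fell in 16 of 39 and rose in 6, beside 32.3% and 33.6% of all genes, with a median of -0.073. With equal totals 27 fell and 3 rose, beside 7192 and 2608 of 13248. IFIT1 fell from 216 ± 18.7 to 89.2 ± 15.04 (-1.28) and IFIT2 (-1.10), ISG20 rose by 1.82, and the MHC class I gene HLA-B and its partner B2M did not pass the test.

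WNT ligands and modulators rose in 14 of 23 tested and fell in 3, with a median of 0.36. WNT5B read 0.89, 0.85 and 4.95 in untreated cells and 225, 203 and 227 at day 1, on 1 to 5 reads in the untreated libraries. WNT7A and WNT7B rose by 2.21 and 2.31, and the receptor gene FZD8 by 2.07, while WNT10A (-2.57) and WNT4 (-2.89) fell. WNT5A, with means under 1 in both groups, was not tested. Among Notch genes 8 of 17 rose and 4 fell, beside 33.6% and 32.3% of all genes. With equal totals 6 rose and 6 fell. The receptors NOTCH1 and NOTCH3 fell, NOTCH1 from 1800.3, 1768 and 1679 to 534, 526 and 557 (-1.70 ± 0.045) and NOTCH3 (-1.77), while a further receptor, NOTCH4, rose from 30.7 ± 2.13 to 109 ± 4.18 (1.79). The ligand JAG1 rose from 1116 ± 62.8 to 3514 ± 23.0 (1.66) and the target HES1 by 0.92.

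Growth factor ligands and receptors rose in 26 of 41 tested and fell in 10, with a median of 0.48. VEGFC rose by 2.46, PDGFB by 1.35 and the EGF-like ligand AREG by 1.43. The receptors ERBB3 and FGFR3 fell from 1056 ± 14.1 to 307 ± 21.5 (-1.78) and from 4669.6 ± 223 to 1422 ± 52.4 (-1.71), whereas AXL and MET rose by 0.91 and 0.62. The binding proteins of insulin-like growth factors took opposite directions, IGFBP3 at 5.51, IGFBP7 at 1.46 and IGFBP2 at -1.69. Hippo pathway genes and targets rose in 14 of 21, with 1 lower, which became 10 and 7 with equal totals. The YAP targets CYR61 and CTGF rose by 2.62 and 2.10 and tissue factor (F3) from 1184 ± 126 to 9784 ± 194 (3.05).

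Metabolic lists moved by less. Of 31 glycolysis and hypoxia genes 18 rose and 5 fell, and with equal totals 12 and 10. The lactate transporter SLC16A3 rose by 1.28 and PFKFB3 by 1.10, and carbonic anhydrase CA9 fell from 1781 ± 37.2 to 473 ± 28.1 (-1.91). In the cholesterol and fatty acid list 17 of 31 rose and 9 fell, none by 2-fold, and the median of 0.11 turned to -0.083 with equal totals and to -0.12 after quantile normalization. Amino acid response genes fell in 15 of 25 and rose in 7, with the serine synthesis enzymes PHGDH and PSAT1 at -0.68 and -0.66. Redox and NRF2 targets fell in 17 of 29 and rose in 10. AKR1B10, an aldo-keto reductase, fell from 109.9 ± 6.94 to 10.3 ± 4.62 (-3.40) and GCLC, of glutathione synthesis (-1.16), while heme oxygenase (HMOX1) rose by 1.22.

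Ribosomal protein genes fell in 52 of 63 and rose in 0, none by 2-fold, with a median of -0.14. Genes of ribosome biogenesis rose in 21 of 30 and fell in 3 (median 0.20), a balance that became 11 and 12 with equal totals. Reads of ribosomal protein genes can be shared with processed pseudogenes. Of 24 p53 targets 9 rose and 10 fell, shares not far from the 33.6% and 32.3% of all genes, with TP53I3 at 2.12, SFN (14-3-3σ), a checkpoint protein of epithelia, at 1.18 and the p53 antagonist MDM2 at -0.48, the last with an adjusted p of 0.141 by limma with all 21 libraries in the fit. Surface markers used to sort stem-like or mesenchymal mammary cells rose in 10 of 13, with a median of 0.92. NT5E (CD73) rose from 1306 ± 29.5 to 10341 ± 159 (2.98), CD44 by 1.07 and CD24, which marks the more epithelial cells, by 1.22, and S100A4 fell by 1.14.

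The line was checked against markers of its own and of other cell types. The summed values of 10 basal markers lay between 394492 and 417981 in untreated cells and between 463994 and 478606 at day 1. LAMB3 (from 8723 to 71236) and ITGB4 (from 12714 to 46011) had the largest gains in that sum, whereas KRT5 (from 224349 to 145714), KRT17 (from 39309 to 29772) and DSG3 (from 7312 to 3668) of the same list fell. Those of 10 luminal markers lay between 15503 and 16888 and between 13410 and 13883, and PGR, ELF5 and KIT were at 0 in all 6 libraries. The 4 mesenchymal markers (VIM, FN1, CDH2 and ZEB1) went from between 9285 and 9682 to between 181968 and 190044. Of 4 endothelial markers CDH5 was at 0 throughout and the sum was 81.1 to 105 in untreated cells and 23.0 to 31.8 at day 1. Of the leukocyte markers PTPRC was at 0 and CD3E at the floor, and the sums of the list were 413 to 424 and 538 to 549, most of which came from CD68. Among 5 fibroblast markers DCN was at 0 and LUM at the floor, and the rise of their sum from between 49.5 and 66.8 to between 459 and 507 came mostly from FAP, fibroblast activation protein (from 24.3 to 449.8, 4.17). As these are bulk libraries, more cells of a kind and more RNA per cell cannot be told apart. The part of other cell types in the results was not tested.

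The first-day values were set beside those of later days, which come from other libraries. SMAD7 had means of 677 at day 1, 928 at day 4 and 529.6 at day 20, and SNAI2 of 6279, 8254 and 5171. FN1, ZEB1 and CDH11 went on to higher values, FN1 to 539309 ± 7073, ZEB1 to 433 ± 9.45 and CDH11 to 2238 ± 47.2 at day 20. KRT15 was at 1053 ± 22.3 at day 4 and 640.2 ± 2.89 at day 20, below the untreated 19185 ± 219 throughout. Other genes did not stay at their day 1 level. NOTCH1, at 539 ± 15.8 on day 1, was at 1730.4 ± 61.0 on day 4, 668 ± 45.4 on day 10 and 7679.7 ± 124 on day 15, and GLUL, at 8448 ± 372 on day 1, was at 7877 ± 118 on day 10 and 56187 ± 616 on day 15. FST ran the other way, with 433 ± 17.3 on day 1, 666 ± 32.6 on day 10 and 116 ± 3.52 on day 15 against 115 ± 7.79 untreated. Thus day 1 and day 10 lay on the same side of the untreated value for all 3 genes, while at day 15 NOTCH1 and GLUL lay on the other side and FST was near the untreated value. One library of day 7 stood apart from the other 2, with NOTCH1 at 7660.4, 7044 and 1655 in the 3 libraries, and day 7 values entered no test other than the fit of all 21 libraries. These genes were picked after their values were seen. By the test of day 4 against day 1, 3.54% of all genes tested were higher and 2.15% lower by at least 2-fold, and 8 and 3 of the 47 genes named for their day 1 change were.

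**Figure D4:**
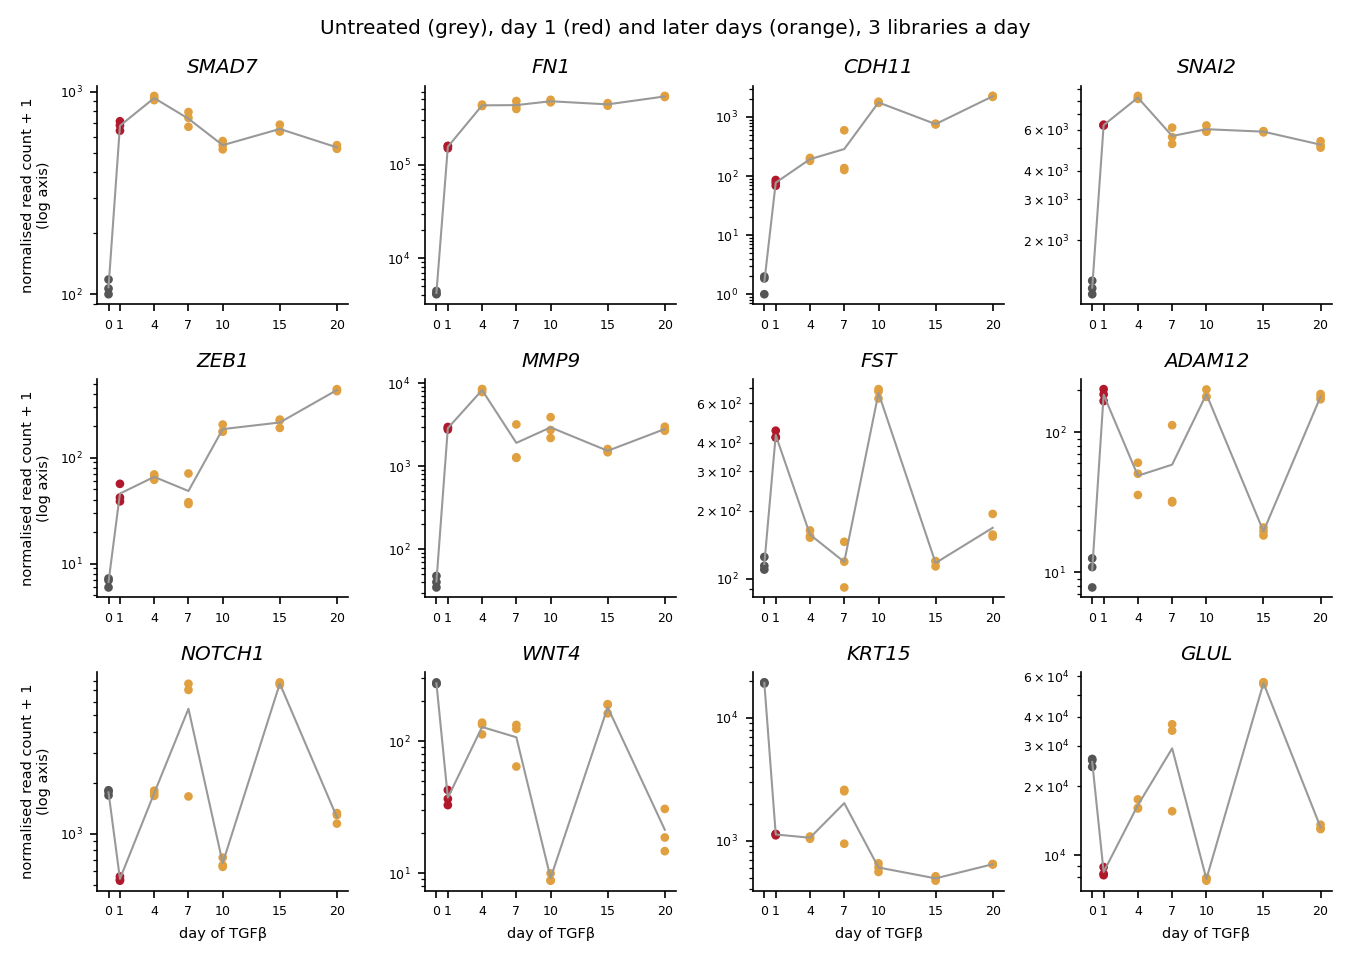
Normalised read count + 1 on a log axis against the day of TGFβ for 12 genes, 1 point per library with a line through the means, untreated in grey, day 1 in red and later days in orange. SMAD7, FN1 and SNAI2 stay above the untreated libraries at every later day, KRT15 stays below them, and NOTCH1, GLUL, WNT4, FST and ADAM12 go up and down between days 1, 4, 10 and 15.

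No time-matched untreated cells, medium changes or cell densities are given in the sources used here for days after 0, so the part of culture conditions in these values was not tested.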

How the data were processed

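RNA of 21 HMLE libraries was sequenced, and the 3 untreated and 3 day 1 libraries were compared. The submitters' processing notes name STAR 2.7, Salmon 1.4 and the build hg19. Whether counting used strand is not given in the sources used here. The deposited table holds signal values, the authors' read counts per gene divided by 1 size factor per library. They gave back whole reads for 100% of values within 0.05 reads. Every column of values matched 1 timepoint, by its header, and none was left out.

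Genes with a mean of at least 10 over the 6 libraries were tested, two-sided, with limma 3.58.1 (R 4.3.3) on log2(value + 1), with Benjamini-Hochberg adjustment over 13248 genes. Calls required an adjusted p under 0.05, and 2-fold calls a log2 change of at least 1 as well. The p-values measure the spread between these libraries. Tests were checked on simulated data. Alternatives were a pseudocount of 10, no minimum, equal totals, quantile normalization, TMM factors, edgeR 4.0.16 and DESeq2 1.42.0 on the recovered reads, all 21 libraries in the fit, and each library left out in turn. Tables and figures were made with Python 3.11.15, pandas 2.3.3, numpy 2.4.6 and matplotlib 3.10.9.

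Named genes were the 15 largest increases and 15 largest decreases among 2-fold calls with a mean of at least 200 in a group and no overlap, the 5 largest gains and losses in value, the 5 highest genes that crossed 3 reads in each direction, and members of 33 gene lists. Members and lists were chosen with earlier results of these data known, and the promoters and the genes followed to later days after values were seen. RefSeq synonyms gave 4 list symbols. Of the genes, 9182 matched a RefSeq promoter window. Some genes that meet the rule are not reported here.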

Additional observations from a re-analysis of the deposited data

Results flagged for a closer look

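Of the 47 genes named for their day 1 change, 11 differed between day 4 and day 1 by at least 2-fold with an adjusted p under 0.05, by limma on the untreated, day 1 and day 4 libraries, which tests the difference between both responses itself. Over all 13248 genes 3.54% were higher and 2.15% lower at day 4 by the same rule. In 8 of the 11 the value was higher at day 4 and in 3 it was lower.

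Increases that went on were those of FN1, from 155910 ± 4909 to 432606 ± 7884 (log2 difference 1.47), MMP9, from 2874 ± 100.1 to 8263 ± 380.1 (1.52), CDH11, from 76.3 ± 8.52 to 192 ± 11.1 (1.33), COL22A1, from 447 ± 35.3 to 1031 ± 12.6 (1.20), and MYO7B, from 119 ± 4.05 to 241 ± 30.9 (1.001). These encode matrix, matrix protease, cadherin and myosin proteins. IGFBP3, from 1976 ± 54.3 to 737 ± 45.2 (-1.42), and MYH15, from 404 ± 24.0 to 164 ± 11.7 (-1.30), had come part of the way back from their day 1 rise. SDPR, low at day 1, was lower still at day 4, from 55.1 ± 1.46 to 24.8 ± 7.24 (-1.16).

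Of these 47 genes, 3 that fell at day 1 were at least 2-fold higher at day 4 than at day 1. PRODH went from 10.5 ± 3.00 to 92.4 ± 3.89 against 200.4 ± 5.58 untreated (3.05), WNT4 from 36.3 ± 4.99 to 127 ± 13.6 against 274 ± 4.06 (1.78) and CXCL14 from 20.7 ± 4.52 to 45.8 ± 4.95 against 273 ± 12.3 (1.12).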

How the results depend on the processing

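When libraries were set to equal totals, 2608 genes were higher and 7192 lower at an adjusted p under 0.05, against 4446 and 4275. Without the minimum on low values, 931 genes were at least 2-fold lower, against 567. Under equal totals ID3 was at -0.014 and TP63 at -0.047, and TP63 was at -0.016 after quantile normalization. None of these 3 values passed the test, and the cause was not tested. Leaving out each library in turn gave 4198 to 4391 genes higher and 3964 to 4112 lower, and at 2-fold 797 to 812 and 561 to 579. Of the 804 genes at least 2-fold higher, 799 to 804 stayed higher past the threshold under each alternative, and of the 567 lower 560 to 567, DESeq2 keeping the fewest of both. The 2-fold size was kept less often. With a pseudocount of 10, 711 of the 804 and 395 of the 567 stayed at least 2-fold, and with equal totals 614 and 567. A further count covered 314 genes: the 47 named for their day 1 change, list members called at least 2-fold, and other genes of the text. Over these and 14 alternatives, 4366 of 4396 values kept their direction and side of the threshold, 20 lost the call, 7 gained it and 3 reversed. Many of these genes were chosen for large changes, so the count says little about smaller ones. BTC, CDH1, CDKN1A, CDKN2B, KRT17, MDM2, MKI67, MYC and SPRR2A lost the call with all 21 libraries in the fit. TGFBR1 lost it with equal totals, and EEF1A1 and ID3 after quantile normalization. Of the list counts, 89 of 1848 moved by over 1.5 times, 29 of them with equal totals.

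No paired analysis was possible because no column header gives a replicate number. At a depth of 18847917 to 21700232 reads per library, 9953 genes were under the minimum and not tested, and a gene at or under 3 reads has a bound only.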

Other observations

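Of the cyclins, CDK inhibitors and MYC, 12 of 25 were higher and 11 lower at day 1, beside 33.6% and 32.3% of all genes. By at least 2-fold 1 was higher and 3 lower, beside 6.07% and 4.28% of all genes. The list median of 0.053 turned to -0.14 with equal totals. Of the luminal genes 8 were tested, and 3 rose and 3 fell, with a median of 0.011 that turned to -0.18 with equal totals. Of the endothelial, leukocyte and fibroblast genes 8 of 20 were tested, and 3 rose and 4 fell. Both sets of counts stand beside 33.6% and 32.3% of all genes, and with 8 genes each they were not far from these shares. The endothelial receptor KDR (VEGFR2) read 41.8, 50.9 and 33.6 in the untreated libraries. It fell to 3.14, 6.15 and 6.95 at day 1 (-2.78) and had a mean of 65.8 at day 4.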
